A study of Mus musculus with 4 samples.

Results

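The genes described here are 66 collagen, laminin, matrix protease and integrin genes, taken by symbol from the 11993 genes of an ATAC-seq table of mouse subcutaneous white fat. The symbols begin as those of collagen chains, laminin chains, matrix metalloproteinases (Mmp), their inhibitors (Timp), Adam and Adamts proteases, integrin chains and lysyl oxidases do. The rule reads symbols and no measured value. ATAC-seq measures open chromatin through the DNA that the Tn5 transposase cuts and tags. Nuclei came from frozen, powdered fat of wild-type mice in 2 female libraries (female 1 and female 2) and 2 male libraries (male 1 and male 2), and the design sets the sexes against each other. Mouse age and strain are not given in the labels. Whether same-sex libraries stem from different animals is not given either, and the p-values therefore measure only the spread between these libraries, which may be technical. The genes comprise 18 collagens, 5 laminins, 6 Mmp, 3 Timp, 6 Adam and 11 Adamts genes, 9 integrin alpha and 4 integrin beta chains and the lysyl oxidase Loxl3. Another 3 were taken in by name alone. Col4a3bp (current symbol Cert1) encodes a ceramide transporter, Itgb1bp1 a protein that binds an integrin tail inside the cell, and Itgb3bp a centromere protein. The same pattern matched 177 genes of the RefSeq table, and the genes outside the 66, Col1a2, Col3a1, Col6a1, Lox and Timp1 among them, were not analysed here.

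Collagens and laminins are the fibres and sheets of the extracellular matrix, and each fat cell is wrapped in a basement membrane of type IV collagen and laminin. Mmp, Adam and Adamts enzymes cut matrix proteins or shed proteins from the cell surface, Timp proteins inhibit them, and lysyl oxidases cross-link collagen. Integrins are pairs of an alpha and a beta chain that hold cells to the matrix and signal from it. When fat pads expand, this matrix has to be taken apart and rebuilt.

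Values were peak heights, that is tag coverage at the top of a peak after scaling, averaged over the regions that the table links to a gene. Heights are listed for every library of a linked region, whether or not a peak was called in it there. The female libraries were higher throughout: the median height over all genes was 38.0 and 30.2 in females and 24.0 and 14.7 in males. Male 2 stood apart, with the lowest heights and with peaks of 284 bp at the median against 162 to 172 bp in the other libraries. Read totals are not in the labels or headers, so the depth behind a height is unknown. On the height scale a tag was worth 1.0 and 0.822 in the females and 0.707 and 0.734 in the males. Differences are male minus female on the log2(height + 9) scale. Their median over the whole table was -0.63, and the number in brackets after the heights of a gene is its difference minus that median, called relative to all genes. Heights are given as female 1 and female 2, then male 1 and male 2. In nuclei from a whole tissue, fewer cells of a type and less open chromatin per cell cannot be told apart.

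The genes differed first in where their open chromatin lay. A region within 1000 bp of the gene's own start was found for 28 of 66 genes (42.4%), against 69.6% of all genes. The start had a peak in all 4 libraries for the sheddases Adam9, Adam10 and Adam17, for Itgb1, the beta chain shared by most matrix receptors, and for Col4a3bp and Itgb1bp1. It had a peak in 3 libraries for Mmp17 and Itgav, in 2 for Lamc1, Adamts17, Itga1 and Itgb5, and in a single library for the other 16. The region of Adam9 with a peak in all 4 libraries was nearer the start of Tm2d2 (59 bp) than its own (230 bp). No collagen start had a peak in more than 1 library. The 5 collagen genes with any start region, of 18, were Col5a3, Col6a2, Col6a5, Col16a1 and Col25a1.

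The promoter letters show what these starts look like in the genome. The 7 windows below are the 250 bases before the start from RefSeq (GRCm38.p6, the assembly of the mm10 build), 5′ to 3′ on the gene's strand. They were chosen to set starts with a peak in all 4 libraries (Adam10, Adam17 and Itgb1) beside a start with 3 (Itgav), one with both females only (Itgb5) and those with female 1 only (Col6a2 and Timp2). Capitals mark matches, on either strand and with overlapping matches counted, to the GC box GGGCGG, the CCAAT box CCAAT, the TATA box TATAAA, the AP-1 motif TGANTCA, the ETS motif CCGGAA and the CRE core motif TGACG.
Adam10: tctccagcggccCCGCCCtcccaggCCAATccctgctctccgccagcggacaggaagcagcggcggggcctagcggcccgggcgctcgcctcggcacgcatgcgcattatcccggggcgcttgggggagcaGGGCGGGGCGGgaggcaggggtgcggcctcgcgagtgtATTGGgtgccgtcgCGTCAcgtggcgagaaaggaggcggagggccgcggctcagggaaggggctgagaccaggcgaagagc
Adam17: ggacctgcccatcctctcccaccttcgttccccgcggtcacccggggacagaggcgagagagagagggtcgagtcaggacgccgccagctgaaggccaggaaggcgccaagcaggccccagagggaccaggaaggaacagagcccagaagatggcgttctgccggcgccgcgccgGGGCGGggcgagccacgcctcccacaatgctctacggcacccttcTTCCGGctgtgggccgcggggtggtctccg
Itgb1: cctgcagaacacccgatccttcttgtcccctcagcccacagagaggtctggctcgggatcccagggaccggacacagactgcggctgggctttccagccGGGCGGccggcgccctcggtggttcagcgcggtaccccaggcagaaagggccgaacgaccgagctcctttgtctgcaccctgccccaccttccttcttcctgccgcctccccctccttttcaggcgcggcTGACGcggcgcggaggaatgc
Itgav: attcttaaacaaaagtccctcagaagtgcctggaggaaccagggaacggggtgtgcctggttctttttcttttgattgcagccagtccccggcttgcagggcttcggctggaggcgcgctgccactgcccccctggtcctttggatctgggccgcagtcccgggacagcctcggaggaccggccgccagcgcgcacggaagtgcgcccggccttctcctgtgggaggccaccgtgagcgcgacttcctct
Itgb5: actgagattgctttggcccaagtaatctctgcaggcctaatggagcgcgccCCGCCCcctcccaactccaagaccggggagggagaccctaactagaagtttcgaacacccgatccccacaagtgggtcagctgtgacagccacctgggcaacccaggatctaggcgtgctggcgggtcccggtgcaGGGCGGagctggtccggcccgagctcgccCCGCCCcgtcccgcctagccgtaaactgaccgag
Col6a2: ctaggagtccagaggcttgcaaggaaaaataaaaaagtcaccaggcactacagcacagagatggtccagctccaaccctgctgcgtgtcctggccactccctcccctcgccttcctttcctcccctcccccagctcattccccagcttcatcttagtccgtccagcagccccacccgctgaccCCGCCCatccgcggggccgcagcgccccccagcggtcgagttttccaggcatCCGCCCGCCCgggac
Timp2: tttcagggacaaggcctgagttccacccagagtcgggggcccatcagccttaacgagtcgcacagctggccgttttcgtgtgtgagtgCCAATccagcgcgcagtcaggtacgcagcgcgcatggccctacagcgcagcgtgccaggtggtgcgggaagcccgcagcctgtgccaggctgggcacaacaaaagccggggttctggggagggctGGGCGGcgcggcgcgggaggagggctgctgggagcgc
The windows lie at chr9:70678732-70678981 (plus strand) for Adam10, chr12:21373633-21373882 (minus) for Adam17, chr8:128685404-128685653 (plus) for Itgb1, chr2:83724147-83724396 (plus) for Itgav, chr16:33829415-33829664 (plus) for Itgb5, chr10:76623405-76623654 (minus) for Col6a2 and chr11:118355412-118355661 (minus) for Timp2. The Adam10 window held 3 GC boxes, 2 CCAAT boxes and 1 CRE core motif, that of Adam17 held 1 GC box and 1 ETS motif, and that of Itgb1 held 1 GC box and 1 CRE core motif. The windows of Itgb5 and Col6a2 held 3 GC boxes each, that of Timp2 held 1 GC box and 1 CCAAT box, and none of these letters occurred in that of Itgav.

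In all, 20 of the 66 genes had a region over such a window. GC content in these windows was 54.4% to 75.6% with a median of 64.4%, against a median of 52.4% over all 32851 windows and 62.8% over the 2645 windows on a region with a peak in all 4 libraries. A GC box occurred in 14 of the 20 windows, against 32.7% of all windows and 71.1% of those with a peak in all 4 libraries. A CCAAT box occurred in 6, against 33.8% of all windows and 51.6% of those with a peak in all 4 libraries. A CRE core motif occurred in 5 (17.8% of all windows), an ETS motif in 3 (12.0%), a TATA box in 1, that of Adamts1 (12.4%), and the AP-1 motif in 0 (6.7%). GC-rich letters were thus shared by starts with a peak in every library and by collagen starts with a peak in a single library. A match is a description of letters and not a site, and 20 windows are too few to compare the groups.

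**Figure D1:**
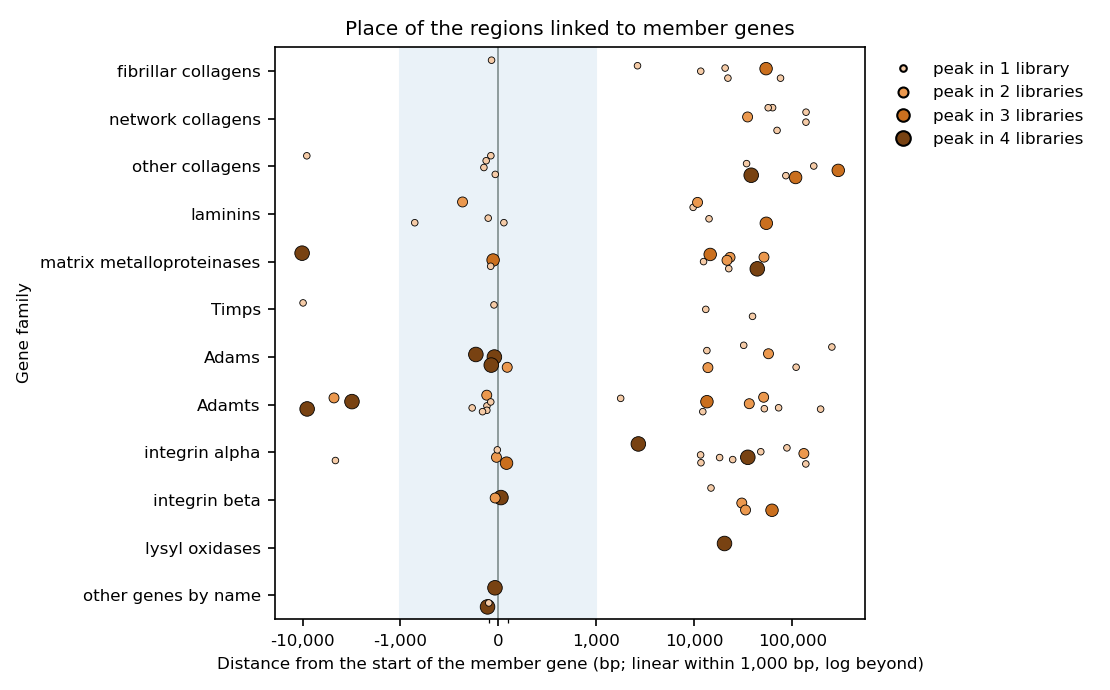
Distance of the 97 regions from the start of the gene they are linked to (x axis, bp, linear within 1000 bp of the start and logarithmic beyond), by gene family, with larger and darker points for peaks in more libraries. Collagen points at the start are all of the smallest size, while the Adam, integrin beta and name-only families each hold a point at the start with a peak in all 4 libraries.

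Away from starts, 22 genes had their nearest region inside the gene (33.3%, against 8.71% of all genes), 5 upstream and 11 downstream. Matrix and integrin genes are long: the median length was 49.3 kb, against 18.8 kb over all genes. Among the 25% of genes that are longest (above 46.1 kb) 15 of 35 had the nearest region inside (42.9%), against 18.8% of all genes there, and among those of 18.8 to 46.1 kb 5 of 18 did (27.8% against 8.17%). For 16 of the 66 genes another gene had exactly the same set of regions, and such a height cannot be assigned to either. Likewise 16 genes had no region inside the gene or at its start. The 14 regions with a peak in all 4 libraries show how much this matters. Only 3 lay on the promoter window of the named gene alone (Adam10, Adam17 and Itgb1), and 2 lay on a window shared with a neighbour (Col4a3bp with Polk and Itgb1bp1 with Cpsf3). In 5 cases the window was that of another gene: Rexo4 for Adamts13, Pfkfb4 for Col7a1, Pdk2 for Itga3, BC029722 for Mmp24 and Taf15 for Mmp28. The other 4, of Adam9, Adamts4, Itga2b and Loxl3, lay on no window, and that of Loxl3 was 43 bp from the start of Htra2.

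**Figure D2:**
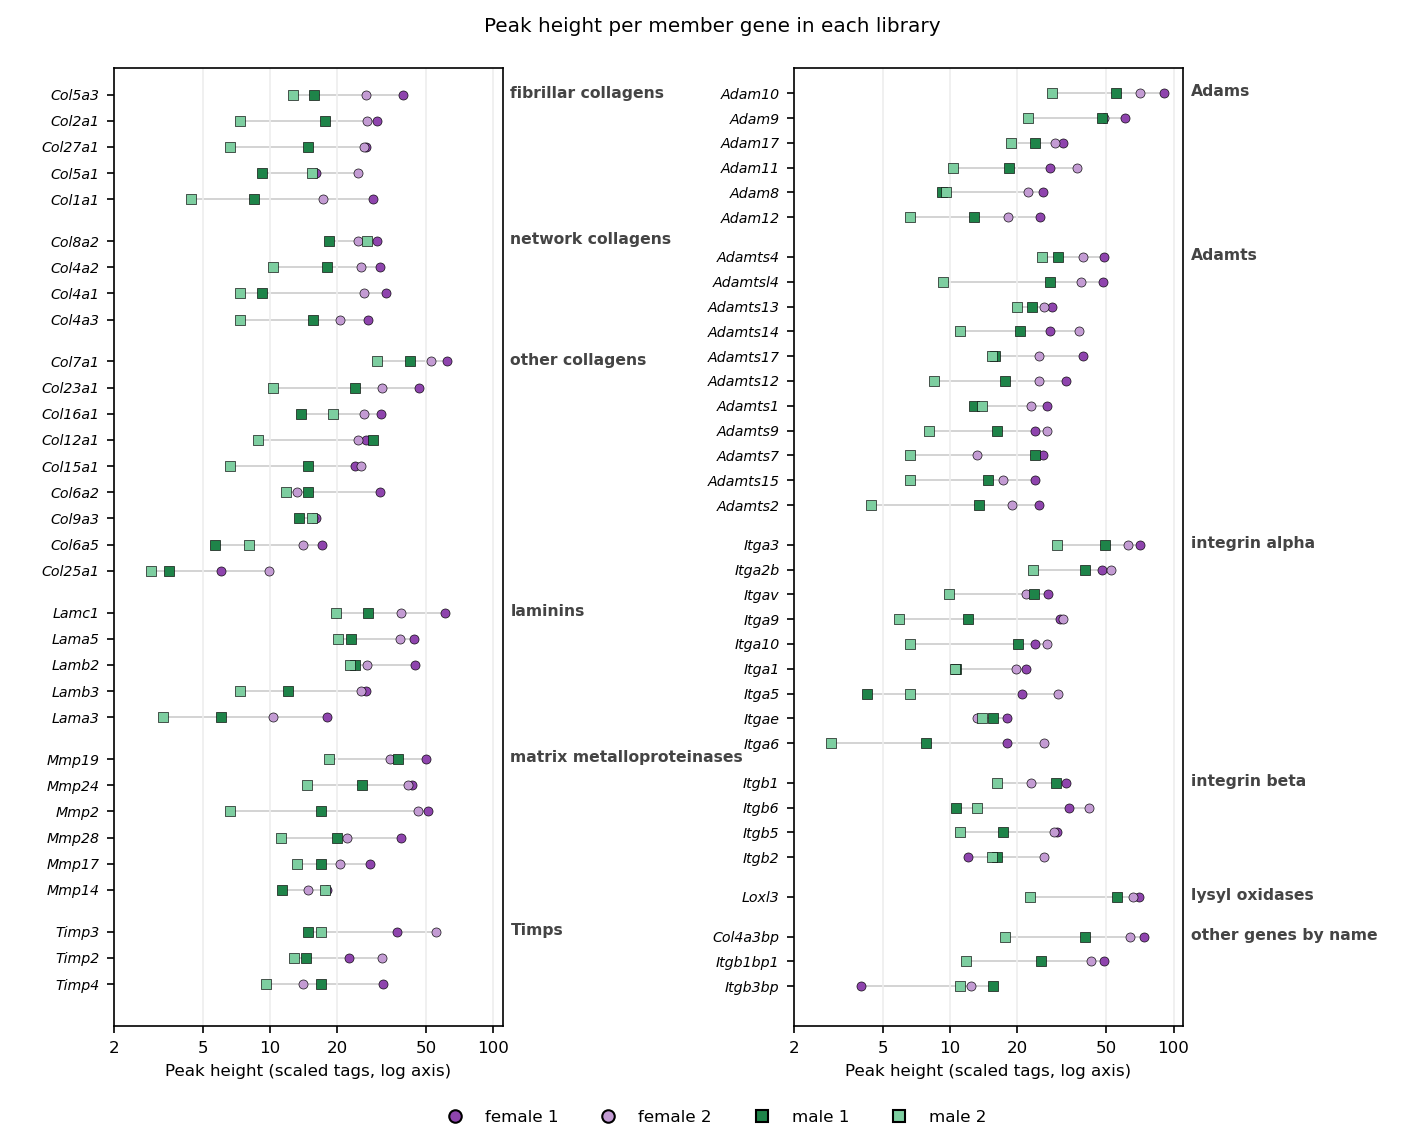
Peak height (x axis, scaled tags, logarithmic) of each of the 66 genes in female 1 and 2 (circles) and male 1 and 2 (squares), grouped by family and ordered by mean height. The squares lie left of the circles for 54 genes, and the ratio of the female to the male mean is largest for Itga5 (4.74), Itga6 (4.14) and Mmp2 (4.12).

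Between the sexes, Mmp2 was the only one of the 66 genes called lower in males by limma (Benjamini-Hochberg adjusted p under 0.05), where 0.592% of all genes were called, and 0 were called higher, where the share of all genes was 0.0%. The library-wide shift left this test little power to call a gene higher. In simulated libraries with that shift it recovered 0.0% of genes raised in males by log2 1, against 83.8% of those lowered by 1. At an unadjusted p under 0.05, 30 of 66 (45.5%) were lower, against 31.4% of all genes, and 0 were higher, against 0.00834%. These shares hold the library-wide shift. With libraries centred on their medians, 6 of 66 and 962 of all 11993 genes had an unadjusted limma p under 0.05 in either direction. Both males lay below both females in 54 genes (81.8%), against 76.4% of all genes, in 0 both males lay above (0.35% of all genes), and in 12 the sexes overlapped. The counts of each family below are to be read against these shares over all genes. A region is in the table only where some library had a peak. Of the 97 regions, 33 had a peak in female 1 only and 14 in female 2 only, against 3 in male 1 only and 6 in male 2 only. Such entry favours higher female heights, so the counts by sex are not independent of it. The median difference of the 66 genes was -0.71, or -0.08 relative to all genes, and the 4 pairs of a male with a female gave -0.09 to -0.01. The median was thus close to that of all genes. The peaks themselves were lower, with a median height of 20.9 against 26.9 over all genes.

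Among the Mmp genes, Mmp2 encodes gelatinase A, which cuts denatured collagen and type IV collagen. Its heights were 51 and 46.0 in the females and 16.96 and 6.61 in the males, which are 51, 56, 24 and 9 tags. Both females were far above both males, without overlap. The log2 difference was -1.51 (SE 0.38, limma adjusted p = 0.0303), which is -0.88 relative to all genes. The region lay at chr8:92850262-92850546 (mm10), inside the gene and 23168 bp from its start, with a peak in both females and neither male. It was linked also to Lpcat2, a lysophospholipid acyltransferase gene whose start is 4854 bp away, so the height belongs to either gene. The call was lost without female 1 (limma adjusted p = 0.828), without female 2 (0.445) and without male 2 (0.484), and held without male 1 (1.16e-04). It was also lost with the libraries centred on their medians (0.609), where the relative difference was the same -0.88.

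The other 5 Mmp genes lay on both sides of the median of all genes. Mmp24, a membrane-bound metalloproteinase, had 43.0 and 41.5 in females and 25.8 and 14.7 in males (-0.21 relative to all genes). Mmp19 had 50 and 34.5 against 37.5 and 18.4 (0.12). In Mmp24 the sexes were apart, in Mmp19 male 1 exceeded female 2, and both heights came from regions downstream of the gene that were linked to other genes. Mmp17, which is anchored to the membrane by a lipid, had 28.0 and 20.6 against 16.96 and 13.2 at its own start (0.17). Mmp28 had 38.5 and 22.2 against 19.97 and 11.2 (-0.04), averaged over 4 regions, the most of any gene here together with Itga1. Mmp14, the membrane-type protease known to activate the Mmp2 proenzyme, had 18 and 14.8 in females and 11.3 and 17.6 in males (0.50). Here male 2 was close to female 1, and its region, 12428 bp from the start and downstream of the gene, had a peak in male 2 only. Relative to the median of all genes Mmp2 and Mmp14 thus had the most negative and the most positive difference of the 6 Mmp genes, and the difference between them was not tested.

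The Timp genes encode the inhibitors. Timp3, which stays bound to the matrix and inhibits Adam17, had 37.0 and 55.1 in females and 14.8 and 16.9 in males, with no overlap. Its log2 difference of -1.13 (SE 0.39, -0.50 relative to all genes) did not pass (limma adjusted p = 0.0985). The relative difference was -0.87 without female 1, -0.13 without female 2, -0.20 without male 1 and -0.79 without male 2. The region lay 39300 bp into the gene, was linked also to Syn3 and had a peak in female 2 only. Timp2, which takes part in the activation of Mmp2 at the cell surface, had 22.5 and 31.7 against 14.5 and 12.9 (-0.03). Timp4 had 32.0 and 13.97 against 16.96 and 9.55 (0.15), with male 1 above female 2.

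Of the 6 Adam genes, all had both males below both females, as did 76.4% of all genes, and 0 passed the limma test (4 at an unadjusted p under 0.05, against 31.4% of all genes). Adam10, the sheddase of Notch and many other surface proteins, had the highest mean height of all 66 genes, with 91.0 and 70.7 in females and 55.1 and 28.6 in males (-0.23 relative to all genes, adjusted p = 0.147). Adam9 had 60.5 and 48.9 against 47.7 and 22.4 (0.04), so that male 1 nearly reached female 2, and its regions were linked also to Tm2d2 and Htra4. Adam17, which releases tumour necrosis factor, had 32.0 and 29.6 against 24.03 and 18.7 (0.23). This mean took in a region 57175 bp from its start and 24 bp from the start of Iah1. At the start of Adam17 the summit heights were 45.0 and 37.81 in females and 26.15 and 27.9 in males, with male 2 above male 1. These 3 broadly used sheddases thus lay within 0.23 of the median of all genes in either direction. Each had a region within 1000 bp of its start with a peak in every library, that of Adam9 being nearer the start of Tm2d2. The other Adam genes had peaks in 1 or 2 libraries. Adam8, known from myeloid cells, had 26.0 and 22.2 against 9.19 and 9.55 (-0.22). Adam11, which lacks protease activity, had 28.0 and 37.0 against 18.4 and 10.3 (-0.22). Adam12, an enzyme of mesenchymal cells, had 25.3 and 18.1 against 12.7 and 6.61 (-0.10), averaged over 3 regions inside the gene that each had a peak in female 1 only.

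The 11 Adamts genes ranged from -0.37 to 0.38 relative to all genes, and 0 passed the limma test (5 at an unadjusted p under 0.05). Adamtsl4, which has no protease domain and binds fibrillin microfibrils, had 48.3 and 38.4 in females and 28.0 and 9.30 in males (-0.37, adjusted p = 0.113). Adamts2, which trims the ends of procollagen I, had 25 and 18.9 against 13.4 and 4.41 (-0.20). In both genes male 2 was far below male 1. Adamts12 had 33.0 and 25.1 against 17.7 and 8.44 (-0.18), and Adamts14, another procollagen-trimming enzyme, 28.0 and 37.8 against 20.5 and 11.0 (-0.15). Among the enzymes that cut proteoglycans, Adamts9 had 24.0 and 27.1 against 16.3 and 8.08 (-0.11), Adamts1 had 27.0 and 23.02 against 12.7 and 13.95 (0.02), and Adamts15 had 24.0 and 17.3 against 14.8 and 6.61 (0.02). No sexes overlapped in these 3 genes. Adamts17 had 39.5 and 25.1 against 15.9 and 15.4 (-0.09). Adamts7 had 26.0 and 13.2 against 24.0 and 6.61 (0.33), the only Adamts gene whose sexes overlapped. Adamts13, which cuts von Willebrand factor in blood, had 28.5 and 26.3 against 23.3 and 19.8 (0.38), and its nearest region was the promoter of Rexo4.

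Collagen genes were low and thinly covered. The median height of the 18 genes was 18.8, their median difference relative to all genes was -0.04, and 0 passed the limma test (8 at an unadjusted p under 0.05). Col4a1 and Col4a2 encode the chains of the common type IV network and are transcribed from a shared promoter, which had no peak in any library. Col4a1 had 33.0 and 26.3 in females and 9.19 and 7.34 in males, with no overlap (log2 -1.16, SE 0.36, limma adjusted p = 0.0804, -0.53 relative to all genes), from a region 63002 bp into the gene with a peak in female 2 only. Col4a2 had 31.0 and 25.5 against 18.02 and 10.3 (-0.07), from its own regions 56803 and 69955 bp inside. Partner chains of a single network thus gave relative differences of -0.53 and -0.07, and the difference between them was not tested. Col4a3, a chain of the kidney network, had 27.5 and 20.6 against 15.6 and 7.34 (-0.09), but its regions lay at the start of Mff. Col8a2 had 30.0 and 24.7 against 18.4 and 27.2 (0.43), with male 2 between the females, from a region 89 bp from the start of Adprhl2.

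In the fibrillar collagens both males lay below both females in 5 of 5 genes, against 76.4% of all genes, and 4 had an unadjusted p under 0.05, against 31.4% of all genes. The only regions of Col1a1, Col27a1 and Col2a1 had a peak in female 1 only, so these counts are not independent of how the genes came into the table. Col1a1, the main chain of type I collagen, had 29.0 and 17.3 in females and 8.48 and 4.41 in males (log2 -1.05, SE 0.35, limma adjusted p = 0.0945, -0.42 relative to all genes). Its region lay downstream of the gene, 22034 bp from the start, and was linked also to Sgca and Hils1. Col5a3 had 39.3 and 26.9 against 15.8 and 12.7 (-0.21), Col27a1 had 27.0 and 26.3 against 14.8 and 6.61 (-0.26), and Col2a1, the cartilage collagen, 30.0 and 27.1 against 17.7 and 7.34 (-0.22). Col5a1 stood on the other side, with 16.0 and 24.7 against 9.19 and 15.4 (0.17), and its region had a peak in male 2 only. The family's median of -0.22 kept its sign in all 4 male-female pairs (-0.30 to -0.06), on 5 genes. The entry of genes through female peaks limits this value as well.

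The other 9 collagens had a median of 0.07 relative to all genes. Col7a1, the anchoring fibril of epithelia, had 62.0 and 52.6 in females and 42.4 and 30.1 in males (0.07), the highest mean of the collagens, from the promoter of Pfkfb4. Col23a1, a transmembrane collagen, had 46.5 and 31.7 against 24.0 and 10.3 (-0.28), and Col15a1, which sits beside basement membranes, 24.0 and 25.5 against 14.8 and 6.61 (-0.18). Only these 2 of the 9 were below the median of all genes. The Col23a1 height was averaged with a region 11 bp from the start of Agxt2l2. That region had summit heights of 53.0 and 38.6 in females and 31.8 in male 1. Col12a1, which coats fibrils, had 27.0 and 24.7 against 29.0 and 8.81 (0.21), so that male 1 was the highest library and male 2 the lowest. Col6a2, a chain of the type VI filaments around fat cells, had 31.0 and 13.2 against 14.8 and 11.8 (0.21), with female 1 apart from the other libraries. Col16a1 had 31.5 and 26.3 against 13.8 and 19.1 (0.05), Col6a5 had 17.0 and 14.0 against 5.66 and 8.08 (0.00), and Col25a1 had 6.0 and 9.86 against 3.53 and 2.94 (0.17), the lowest heights here. Col9a3 had 16.0 and 15.6 against 13.4 and 15.4 (0.54), from a region near the start of Ogfr. The sexes overlapped in Col12a1 and Col6a2 only.

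Of the 5 laminin genes 0 passed the limma test. Both males lay below both females in 5 of 5 (76.4% of all genes) and 3 had an unadjusted p under 0.05 (31.4% of all genes). Lamb3 and Lama3 encode chains of the laminin that anchors epithelia. Lamb3 had 27.0 and 25.5 in females and 12.0 and 7.34 in males (-0.30 relative to all genes, limma adjusted p = 0.112), and Lama3 had 18 and 10.3 against 6.01 and 3.30 (-0.12). Lamc1, Lama5 and Lamb2, chains of wider use, had higher listed heights, those of Lama5 and Lamb2 in part through a neighbour's region. Lamc1, the gamma chain of most laminins, had 61.0 and 38.6 against 27.6 and 19.8 at its own start (-0.20), where both females and neither male had a peak. Lama5 had 44.0 and 38.2 against 22.97 and 20.2 (-0.08), and Lamb2 had 44.5 and 27.1 against 24.0 and 22.8 (0.19), each averaged with a region at a neighbour's start (Adrm1 and Usp19). The Adrm1 region had 68.0 and 50.1 against 35.3 and 33.8. The region inside Lama5 had a peak in female 2 only, with a summit height of 26.3. A link between breadth of use and height was not tested. In Lamb2 both males came close to female 2.

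Among the integrin alpha chains, 0 of 9 passed the limma test (3 at an unadjusted p under 0.05). Itga5, the alpha chain of the fibronectin receptor, had 21.0 and 30.4 in females against 4.24 and 6.61 in males, or 21, 37, 6 and 9 tags. Both females were far above both males. The log2 difference was -1.26 (SE 0.35, limma adjusted p = 0.0511, -0.63 relative to all genes), from a region of its own 4612 bp upstream with a peak in female 1 only. It passed with a pseudocount of 36 (adjusted p = 0.0492), with a single row per set of regions (0.0453), with limma without trend (0.0380) and without male 1 (0.0108), and not with centred libraries (0.622) or without female 1 (0.402), female 2 (0.439) or male 2 (0.327). Its relative difference ranged from -0.98 without male 2 to -0.28 without male 1, and was -0.30 without female 2. Itga9, which binds tenascin-C, had 31.0 and 32.1 against 12.0 and 5.87 (-0.57, adjusted p = 0.0747), 131371 bp into the gene. Itga6, a laminin receptor chain of epithelia and vessels, had 18 and 26.3 against 7.78 and 2.94 at its own start (-0.50, adjusted p = 0.0804, with the relative difference at -0.83 without female 1 and -0.17 without female 2). These 3 had the most negative differences of the alpha chains. The collagen receptor chains were nearer the median of all genes: Itga1 had 21.8 and 19.7 against 10.6 and 10.5 (0.02), and Itga10 had 24.0 and 27.1 against 20.2 and 6.61 (-0.07). Both heights were averaged with regions at a neighbour's start. For Itga1 these lay 114 and 210 bp from the start of Pelo, and for Itga10 109 bp from that of Ankrd35. Itgav, which pairs with several beta chains, had 27.5 and 21.8 against 23.7 and 9.91 (0.20), with male 1 above female 2. This mean took in a region 120 bp from the start of Fam171b, with 8.0 and 9.86 against 15.6 and 6.61. At the start of Itgav the summit heights were 47.0 and 33.7 in females and 31.8 in male 1, with no peak in male 2. Itga3, another laminin receptor chain, had 71.0 and 62.5 against 49.5 and 30.1 (-0.03) from the promoter of Pdk2. The platelet chain Itga2b had 48.0 and 52.6 against 40.3 and 23.5 (0.06), and Itgae, known from T cells within epithelia, 18 and 13.2 against 15.6 and 13.95 (0.59). In Itgae both males lay between the females, and its region was 10 bp from the start of Gsg2.

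The 4 integrin beta chains split into 2 below and 2 above the median of all genes, and 0 passed the limma test (2 at an unadjusted p under 0.05). Itgb6, an epithelial chain whose receptor activates TGF-beta, had 34.0 and 41.9 in females and 10.6 and 13.2 in males, with no overlap (log2 -1.17, SE 0.38, limma adjusted p = 0.0936, -0.54 relative to all genes). Its region lay 33355 bp into the gene, with a peak in both females and neither male. Its relative difference was -0.28 without female 2, -0.21 without male 1 and -0.86 without male 2. Itgb5 had 30.0 and 29.1 against 17.2 and 11.0 (-0.12), averaged over 3 regions. Itgb1 had 33.0 and 23.02 in females against 29.7 and 16.2 in males at its own start, where every library had a peak. Here male 1 was between the females, and the difference of -0.23 was 0.40 above the median of all genes (limma adjusted p = 0.600). Itgb2, the beta chain of leukocytes, had 12.0 and 26.3 against 16.3 and 15.4 (0.50), with both males between the females. Over all 13 integrin chains the median relative difference was -0.03, and it changed sign over the 4 male-female pairs (-0.22 to 0.09).

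Markers of other cell types were measured in the same libraries. Of 13 genes listed as markers of mammary epithelium, a tissue that lies in the subcutaneous fat of female mice, 4 were measured (St14, Spint2, Cldn3 and Esrp1), and keratin genes and Epcam were not analysed here. All 4 had both males below both females (76.4% of all genes), and St14 and Spint2 were called by limma (0.592% of all genes). Both calls were lost with libraries centred on their medians or with quantile normalization, where 0 of all genes were called. The nearest region of Spint2 lay 33497 bp from its start, and its regions were linked also to Yif1b and 2200002D01Rik. The heights of the 4 markers summed to 131 and 99.5 in females against 48.8 and 28.6 in males, with a median of -0.65 relative to all genes. Esrp1 gave 57.0 and 41.9 of the female sums and 34.6 and 21.3 of the male sums at a relative difference of only -0.045, from a region 64575 bp away that Dpy19l4 shares. The part of such cells in the values of Lama3, Lamb3, Itga6 and Itgb6 was not tested. Of 12 adipocyte markers 8 were measured, while Adipoq, Plin1, Lep and Fabp4 were not analysed here. They summed to 318 and 266 in females against 165 and 115 in males, with a median of -0.09. The 5 measured markers of fibroblasts and progenitors, of 10 listed, summed to 118 and 108 against 57.6 and 59.1 (median -0.20), and their part in the values of the collagen genes was not tested either. Both measured markers of skeletal muscle, of 6, had an unadjusted p under 0.05 (31.4% of all genes) with a median of -0.425, and so did both of mural cells, of 6, with a median of -0.25. Of 4 measured Schwann cell markers, of 7, Erbb3 was called (22 and 26.3 against 5.66 and 3.67, limma adjusted p = 0.0436, -0.65 relative to all genes), and the median was 0.005. The Erbb3 call was likewise lost with centred libraries. Endothelial markers lay at 0.07 (5 of 9 measured) and those of macrophages at 0.01 (2 of 8). The single lymphocyte marker measured, of 7, lay at -0.15, and 0 of 4 keratinocyte markers were measured. The part of these cells was not tested.

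The single lysyl oxidase, Loxl3, had 70.0 and 65.8 in females and 55.8 and 22.8 in males (-0.13), from the region at the start of Htra2. Of the genes taken in by name alone, Col4a3bp had 74.0 and 64.1 against 40.3 and 17.6 (-0.48, limma adjusted p = 0.110) and Itgb1bp1 49.0 and 42.7 against 25.5 and 11.8 (-0.41). Itgb3bp had 4.0 and 12.3 in females against 15.6 and 11.01 in males, the only gene of the 66 with a difference above 0. It lay 1.04 above the median of all genes, but female 2 was between the males, and the region was linked also to Efcab7.

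**Figure D3:**
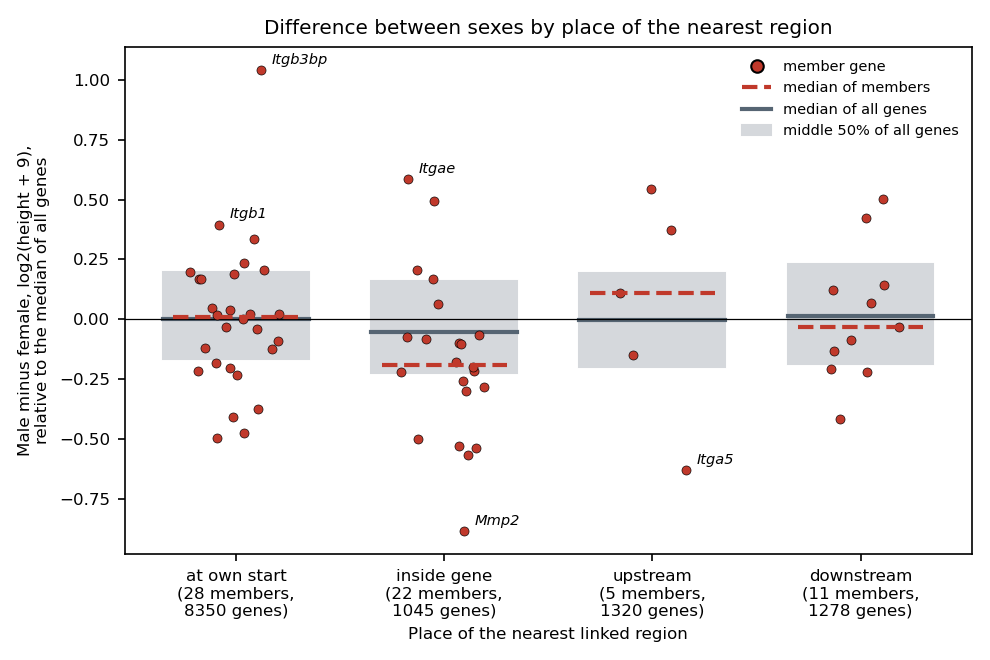
Male minus female difference in log2(height + 9) relative to the median of all genes (y axis) for each of the 66 genes, by the place of the nearest region (x axis), with the median of the genes (dashed), the median of all genes at that place (solid) and their middle 50% (grey). The dashed line lies below the solid one for regions inside genes (-0.19 against -0.05) and on it at starts (0.01 against 0.00).

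Genes whose nearest region lay inside the gene had more negative differences than those open at their start, a gap that was not tested. The 22 such genes had a median of -0.19 relative to all genes, with 17 below and 5 above, and pairs of a male and a female gave -0.35 to -0.04. The 28 genes with a region at their start had a median of 0.01 (13 below and 15 above). Over all genes the medians were -0.05 inside and 0.00 at starts. Of the 6 most negative differences, those of Mmp2, Itga9, Itgb6, Col4a1 and Timp3 came from regions inside the gene and that of Itga5 from a region upstream. Over the alternatives that kept these genes the median inside lay between -0.36 (pseudocount of 1) and -0.06 (pseudocount of 36), and without male 2 the medians were -0.11 inside and -0.10 at starts. The gap between inside and start was thus 0.01 without male 2. With genes beyond 10000 bp of their start left out, the median was 0.06 inside and 0.01 at starts. Among the 25% of genes that are longest the median inside was -0.18 for the 15 genes here and -0.06 for all genes. With all genes ranked by height in 4 equal parts, the median relative difference went from 0.10 in the lowest to -0.10 in the highest, and for the genes here it was 0.00, -0.07, -0.28 and -0.03 from the lowest part (29 genes) to the highest (9 genes).

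**Figure D4:**
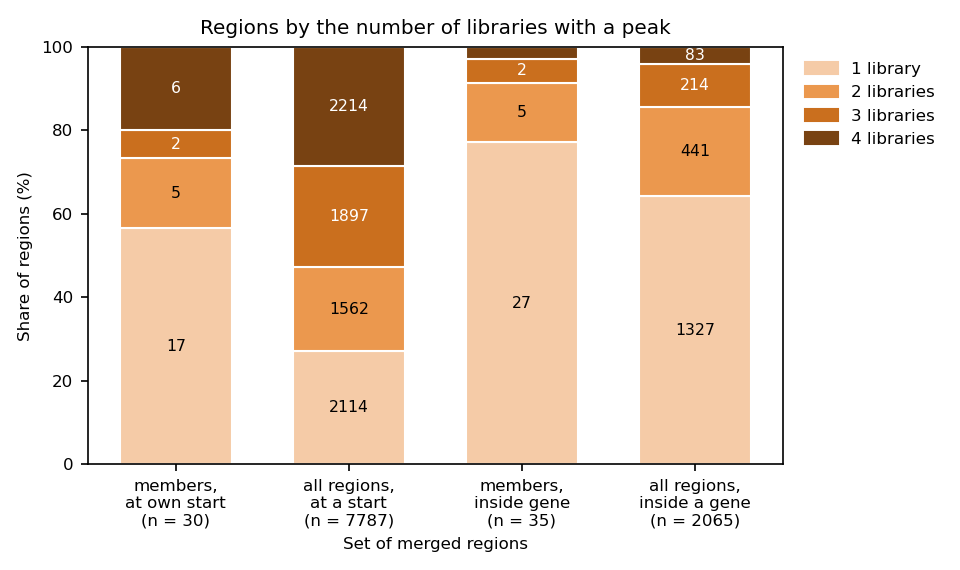
Share of merged regions (y axis, percent, with the number of regions in each segment) by the number of libraries with a peak there, for regions at starts and inside genes, each for the genes here and for all regions. The palest segment, peaks in a single library, covers 56.7% of the start regions here against 27.1% of all start regions, and 77.1% against 64.3% inside genes.

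Regions of the 66 genes had a peak in a single library in a larger share than regions linked to other genes only, a difference that was not tested. Of the 66 genes, 55 (83.3%) and 44 (66.7%) had a linked peak in the females, and 23 (34.8%) and 22 (33.3%) had one in the males, against 89.7%, 76.7%, 61.2% and 49.1% of all genes. Of the 97 regions, 56 had a peak in 1 library (57.7%, against 36.9% of the 10882 regions linked to other genes only and 40.7% of all 12477 regions) and 14 in all 4 (14.4%, against 21.9% and 19.9%). Collagen genes had 19 of 24 regions in 1 library, 1 in all 4, that of Col7a1, and 0 in both females and neither male. The Timp genes had all 4 of their regions in 1 library, and the laminin genes 5 of 8, with 0 in all 4. Peak calls split heights that were close. Among the 43 genes with a single region, the lowest height with a peak in female 1 was 17.0, that of Col6a5, while the Timp3 region reached 37.0 there with no peak. A peak in 1 library therefore does not show that the chromatin was closed in the others.

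A peak in both females and neither male was found in 14 regions (14.4%, against 12.9% of all regions). They were linked to Mmp2, Mmp24, Mmp28, Adam8, Adamts9, Adamts13, Adamts14, Adamts17, Lamb2, Lamc1, Itga9, Itgb6 and, with 2 regions, Itgb5, and to no collagen gene. Those of Adam8, Lamb2, Adamts13 and Mmp24 lay 35, 20, 102 and 141 bp from the starts of 6430531B16Rik, Usp19, Cacfd1 and Eif6. For these the pattern cannot be assigned to the protease or laminin gene. The reverse pattern was found in 1 region (1.03%, against 0.465%), at chr8:25016552-25016868, 90 bp from the start of Adam9, where the summit heights were 26.9 and 20.6 in the males. The next region, at chr8:25016993-25017293, had a peak in every library with summit heights of 97.0, 72.3, 68.6 and 24.2. Peaks in a single male library were found for Col4a3, Col23a1 and Itgav in male 1 and for Mmp14, Col5a1, Col9a3, Itga1, Itgb3bp and Adamts1 in male 2. When each library gave as many regions as male 2, its highest ones, the counts were 3 and 2, against 2.74% and 2.02% of all regions, so that the excess of female regions was nearly gone.

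Other genes of the matrix and of integrin signalling, 152 listed and 86 measured, gave 1 gene called lower and 0 higher by limma (30 lower and 0 higher at an unadjusted p under 0.05, or 34.9% lower against 31.4% of all genes). Mfap5, a microfibril protein made by fibroblasts, had 25 and 27.1 in females and 2.83 and 7.34 in males at its own start, with no overlap (log2 -1.33, SE 0.35, limma adjusted p = 0.0316, -0.71 relative to all genes). The call was lost without female 1, female 2 or male 2. The other 17 of 18 matrix glycoproteins did not pass even at an unadjusted p under 0.05, among them Egflam (14.0 and 21.4 against 7.07 and 8.08) and Nid1, which links laminin to type IV collagen (26.5 and 22.2 against 14.8 and 8.81), and the median of the list was 0.13. Proteoglycans lay at a median of -0.24 (10 genes, 8 with an unadjusted p under 0.05, against 31.4% of all genes), with the syndecan Sdc1 at 15.0 and 23.02 against 8.48 and 2.94 and Cspg4 at 30.0 and 18.5 against 10.3 and 5.87. Collagen processing enzymes lay at 0.00 (19 genes), with the lysyl hydroxylase Plod2 at 25.5 and 20.1 against 7.78 and 6.98. Plasminogen and cathepsin genes lay at 0.07 (9 genes), with the lysosomal protease Ctsd at 70.0 and 55.1 against 28.3 and 24.2, and integrin adhesion genes at -0.09 (30 genes), with the talin Tln2 at 38.0 and 24.7 against 7.78 and 9.55. None of these 5 genes passed (limma adjusted p from 0.0804 to 0.119).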

How the data were processed

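Per the labels' protocols, DNA of nuclei from 4 samples was tagged with Tn5 and went through 10 cycles of PCR. Per the submitters' processing notes, BWA and MACS2 2.1.0 were used with mm10; nothing is said of filters or a Tn5 shift. Per the file headers, the authors called peaks in each library and then merged them. The deposited signal is peak height, scaled per library and averaged over the regions of a gene; of the deposited heights of genes with 1 region, 100.0% were whole multiples of a step (within 2% of it). The origin of the scaling is unknown. Read counts were not used, and 0 per-library columns were left out.

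Heights were taken as log2(height + 9), where 9 rounds up the 5th percentile of non-zero heights. All 11993 genes, the 66 described included, had a height above 0 in at least 2 libraries. Sexes were compared with limma 3.58.1 (R 4.3.3) with trend over all genes, Benjamini-Hochberg adjusted, checked on simulated data. With the observed library-wide shift and no scaling, 98.4% and 83.8% of genes lowered by log2 2 and 1 were recovered. Of genes raised by 2 and 1, 48.4% and 0.0% were recovered. With libraries centred on their medians, 66.8% of genes raised by 1 were recovered. On this scale the change of low genes is understated. With 2 against 2 libraries an exact permutation test reaches a two-sided p of 0.33 at best and was not used. Peaks and regions were matched with an overlap of at least 1 bp. Exon and intron positions were not used. Promoter windows came from RefSeq GRCm38.p6, and all 66 gene IDs matched its gene table. Tables and plots were made in Python 3.11.15 with pandas 2.3.3, numpy 2.4.6 and matplotlib 3.10.9.

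The rule for the 66 genes reads symbols only, but the choice of this set and of the lists was made with earlier results of these data known. The naming rule took every gene past the threshold, the 6 most negative and 6 most positive differences, in each family the highest mean, both extremes and up to 3 more by smallest p, genes with regions in 1 sex or with the most regions, and from each pathway list the called genes and up to 3 by smallest p. Alternatives covered the pseudocount, filter, scaling, replicate block, variance trend, shared and distant regions, overlap and each library left out. The alternatives for the pathway lists, and the libraries left out of the region counts, were added after the data were seen. The region linked to Adamts4 is not described further and its heights are not reported here.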

Additional observations from a re-analysis of the deposited data

How the results depend on the processing

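Genes here called lower in males numbered 1 in the test as described. The number was 2 with a pseudocount of 36 and with a single row per set of regions, 7 with limma without trend (with Itga5, Itga6, Itga9, Itgb6, Col4a1 and Timp3 beside Mmp2), and 0 with a filter that left out the 25% of genes lowest in height, with libraries centred on their medians, with quantile normalization, without genes that share all regions and without genes beyond 10000 bp of their start. With a library left out it was 0 to 40, the 40 without male 1 (among 6391 of all genes). No gene here was called higher under any alternative tried, though without scaling the simulated test recovered 0.0% of genes raised by log2 1. The pathway lists, with 1 called, gave 2 without trend, 0 with the filter, centring or quantile normalization, and 0 to 46 with a library left out. With the replicate number as a block 43 genes here, 50 of the pathway lists and 6918 of all genes were called lower. Deviations of same-numbered libraries from the sex means correlated at 0.0166 over genes, a value that cannot show a library-wide shift. The median height was higher in replicate 1 in both sexes (38.0 against 30.2 in females, 24.0 against 14.7 in males). Whether same-numbered libraries share a batch was not tested. The median relative difference of -0.08 was -0.155 with a pseudocount of 1, -0.015 with one of 36 and 0.021 without genes beyond 10000 bp of their start, and -0.115 to -0.012 with a library left out. Regions with a peak in both females and neither male, 14, numbered 3 with the same number of regions per library and 15 to 47 with a library left out; the reverse, 1, gave 2 and 1 to 7. The cause of these changes was not tested, except that leaving out a library changes the rule for a region by construction. Where genes that share regions or lie far from their start were left out, Mmp2 itself was among those removed. Of the single genes, 20 and 14 of the 66 moved in relative difference by more than the spread of the pairs with pseudocounts of 1 and 36. Unknown read depth and 2 libraries per sex limit every comparison, and heights shared by neighbouring genes cannot be assigned.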
